A study of Arabidopsis thaliana with 24 samples.

Results

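The 10 genes described here are the salicylic acid response genes PR1, PR2, PR5, ICS1, NPR1, EDS1, PAD4, SAG101, WRKY38 and WRKY70 of Arabidopsis thaliana. They were chosen by their locus identifiers out of the 33612 genes listed in the count table, and all 10 were found. Messenger RNA was sequenced from whole seedlings, 9 days old, of 4 genotypes with 3 biological replicates each. The genotypes are the wild type (WT), pkl-1 (pkl below), pif4, and pkl-1pif4 (pklpif4 below), which by its label carries both mutations. No allele number is given for pif4, and the labels name no agent or pathogen. By their labels all 4 groups share continuous white light, and their columns carry the number 28, whose unit the labels do not make clear. PKL encodes a CHD3-type chromatin remodeller that keeps seed genes silent after germination, and PIF4 is a bHLH transcription factor of warmth- and shade-induced growth. The comparisons ask how each mutation alone, and both together, change the transcripts of these genes.

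Salicylic acid is a phenolic hormone that plants make when attacked by pathogens that feed on living cells. In Arabidopsis most of it is made from chorismate by way of isochorismate. It is sensed by proteins of the NPR family, and these act with TGA transcription factors on defence genes. The lipase-like proteins EDS1, PAD4 and SAG101 carry signals from intracellular immune receptors into the same pathway, and WRKY transcription factors amplify or restrain it. In healthy seedlings the output genes are known to be weakly expressed.

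The bases upstream of 3 of these genes, PR5, ICS1 and WRKY70, are shown. In at least 1 comparison these had the largest called changes below that were kept under each alternative setting in which the gene was tested. Each is the stretch of 250 bases before the gene's RefSeq start on assembly TAIR10.1, written 5′ to 3′ on the gene's strand. Capitals mark TTGAC, the core of the W box that WRKY proteins bind, and TGACG, the core of the element that TGA factors bind, or their reverse complements GTCAA and CGTCA. The stretches lie at chr1:28177420-28177669 on the plus strand for PR5, chr1:28070045-28070294 on the plus strand for ICS1 and chr3:20910624-20910873 on the minus strand for WRKY70.
PR5: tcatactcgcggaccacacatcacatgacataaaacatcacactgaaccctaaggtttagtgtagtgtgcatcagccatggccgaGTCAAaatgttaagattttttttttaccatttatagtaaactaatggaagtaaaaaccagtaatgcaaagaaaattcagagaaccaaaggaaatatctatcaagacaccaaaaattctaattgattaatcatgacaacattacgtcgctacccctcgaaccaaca
ICS1: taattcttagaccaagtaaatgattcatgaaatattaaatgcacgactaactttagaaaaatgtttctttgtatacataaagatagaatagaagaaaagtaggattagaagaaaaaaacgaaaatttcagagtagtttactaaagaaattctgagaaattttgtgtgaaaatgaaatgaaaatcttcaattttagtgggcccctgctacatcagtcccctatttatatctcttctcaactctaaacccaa
WRKY70: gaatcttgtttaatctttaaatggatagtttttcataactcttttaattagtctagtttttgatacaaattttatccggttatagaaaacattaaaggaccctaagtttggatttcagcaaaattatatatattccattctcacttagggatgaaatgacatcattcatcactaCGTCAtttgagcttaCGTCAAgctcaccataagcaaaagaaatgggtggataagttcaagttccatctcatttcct
The PR5 stretch holds 1 W box core, 165 bases before the start. The WRKY70 stretch holds TGA cores 76 and 61 bases before the start, and the second overlaps a W box core at 60 bases. Neither set of letters is in the ICS1 stretch. In windows from 250 bases before to 50 bases after the start, 8 of the 10 genes held TTGAC on either strand, against 50.5% of 27443 RefSeq gene starts, and 1 of 10 held TGACG, against 23.1%. In the 250 bases before the start alone, the counts were 6 of 10 (44.9% of all) and 1 of 10 (18.6% of all). A match of letters is a description and says nothing of whether a protein binds there.

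Library depth ran from 37762216 to 56492669 counts. PKL transcript was at 97.3 ± 4.12 CPM (counts scaled to the library total with TMM factors; SD, n = 3) in WT and 103 ± 4.03 in pkl, so it does not check the pkl label. PIF4 transcript was at 100.4 ± 4.56 CPM in WT, 65.8 ± 2.97 in pkl, 174 ± 3.36 in the libraries labelled pif4 and 148 ± 1.09 in those labelled pklpif4. PIF4 transcript thus rose in both groups whose label names the pif4 mutation (adjusted p = 8.02e-42 and 4.77e-30), so these are called the pif4-labelled and the pklpif4-labelled libraries below. Because whole seedlings were sequenced, fewer cells of a type and less RNA per cell cannot be told apart. Summed over 10 root markers, libraries held from 101 to 109 CPM in WT, from 174 to 181 in pkl, from 183 to 190 in the pif4-labelled group and 139 to 145 in the pklpif4-labelled group. Over 6 green tissue markers the sums were 26130 to 26611, 19839 to 20395, 23256 to 23452 and 28240 to 28970 CPM in the same order. Over 6 seed markers they were 48.5 to 51.1, 47.6 to 51.4, 46.6 to 49.7 and 3391 to 3427 CPM, so the pklpif4-labelled seedlings alone had a high seed sum. The flat seed sums in pkl and the pif4-labelled group hide opposite moves of single markers. CRU3 fell from 16.7 CPM in WT to 1.13 and 1.70, while CRA1 rose from 30.8 to 38.3 and 38.8. Of the 10 root markers 6 rose and 1 fell in pkl, 10 and 0 in the pif4-labelled group, and 7 and 2 in the pklpif4-labelled group. For the 6 green tissue markers these counts were 0 and 6, 0 and 5, and 4 and 1. For the 6 seed markers they were 5 and 1, 4 and 1, and 6 and 0. Of all 22130 tested genes 27.1% rose and 26.5% fell in pkl, and 16.2% and 16.2% did in the pif4-labelled group. In the pklpif4-labelled group 27.2% rose and 27.7% fell, and no marker list was tested against these shares. The part of these tissues in the results below was not tested.

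Of the 10 genes, 8 had enough counts to enter the test, and PR1 and PR2 did not. Changes are log2 differences ± SE from edgeR's quasi-likelihood test on all 22130 tested genes, and a gene rose or fell where the Benjamini-Hochberg adjusted p over all of them was under 0.05. Per length, the order of the WT levels was NPR1 (10.1 ± 0.783 FPKM, fragments scaled by exon length and library total; SD, n = 3), EDS1 (6.003 ± 0.813), PAD4 (4.97 ± 0.320), SAG101 (3.83 ± 0.266), ICS1 (3.52 ± 0.213), PR5 (2.41 ± 0.637) and WRKY70 (1.03 ± 0.282). PR1, WRKY38 and PR2 followed at 0.208, 0.176 and 0.0330 FPKM, each with an SD near or above its mean. Neighbours in this order that did not differ beyond their spread were EDS1 and PAD4, SAG101 and ICS1, and the last 3. NPR1 was highest in all 4 groups. ICS1 ranked 5 of 10 in WT, 4 in pkl and in the pif4-labelled group, and 2 in the pklpif4-labelled group, at 7.94 ± 0.382 FPKM.

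**Figure D1:**
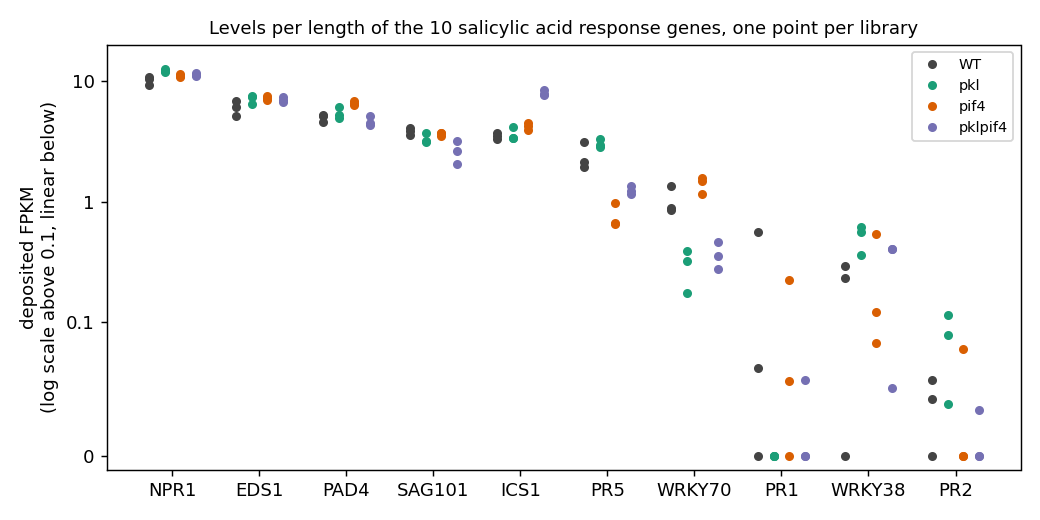
Deposited FPKM (y axis, logarithmic above 0.1 and linear below) of each gene (x axis) with 1 point per library, coloured by genotype. NPR1 stands highest at 10.1 to 12.1 FPKM as group means, ICS1 stands apart in the pklpif4-labelled libraries, and PR1 and PR2 have libraries at 0.

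Positions below are those of the count table on TAIR10 and span the exons. The classical output genes were near or below the limit of this depth, apart from PR5. PR1 (AT2G14610, chr2:6241704-6242463, minus strand) encodes a secreted protein whose transcript is the most used readout of salicylic acid signalling. It had 0, 2 and 16 counts in the WT libraries, 0 in each pkl library, 2, 8 and 0 in the pif4-labelled libraries and 2, 0 and 0 in the pklpif4-labelled ones. A single WT library, replicate 3, therefore carried 16 of the 18 WT counts. Low counts in these tables are mostly even, as they would be if each read of a pair added 1, so 18 counts stand for about 9 fragments and the floor of 3 fragments is 6 counts over a group. The exact binomial 95% interval of the ratio of pkl to WT ran from 0 to 0.478, for counting error only. Without WT replicate 3 both groups were under the floor and no fold can be given. In a fit without the count filter, edgeR gave an adjusted p of 0.00647 for PR1 in pkl and DESeq2 gave 0.136. PR1 was at 0.110 of the WT level in the pklpif4-labelled group (interval 0.00251 to 0.795), on a single fragment, which is under the floor. Without the count filter neither edgeR (adjusted p = 0.0578) nor DESeq2 (adjusted p = 0.357) called that difference. In the pif4-labelled group PR1 was at 0.543 of the WT level (interval 0.143 to 1.81).

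PR2 (AT3G57260, chr3:21188517-21189859, minus strand), a secreted beta-1,3-glucanase, had 4, 0 and 2 counts in WT, 6, 2 and 6 in pkl, 0, 0 and 4 in the pif4-labelled libraries and 2, 0 and 0 in the pklpif4-labelled ones. The pkl libraries were the only group with counts in all 3, yet the ratio of pkl to WT of 2.20 had an interval from 0.502 to 13.2, so no difference was detectable at this depth. WT, the pif4-labelled and the pklpif4-labelled groups were all at or under the floor.

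PR5 (AT1G75040, chr1:28177703-28178940, plus strand), a secreted thaumatin-like protein, was measurable in every library. It stood at 1.95, 2.14 and 3.14 CPM in WT, 2.82, 2.70 and 3.14 in pkl, 0.642, 0.948 and 0.645 in the pif4-labelled libraries and 1.34, 1.21 and 1.15 in the pklpif4-labelled ones. All 6 libraries with a pif4 label were below all 6 without one. PR5 fell by 1.67 ± 0.26 on the log2 scale in the pif4-labelled group (adjusted p = 4.61e-08) and by 0.95 ± 0.24 in the pklpif4-labelled group (adjusted p = 0.000516). In pkl the difference was 0.27 ± 0.23 (adjusted p = 0.322) and the groups overlapped. The pklpif4-labelled libraries were lower than pkl by 1.22 ± 0.24 (adjusted p = 9.82e-06) and higher than the pif4-labelled ones by 0.72 ± 0.27 (adjusted p = 0.0219). That last call was lost without pif4-labelled replicate 1 (adjusted p = 0.089), pif4-labelled replicate 3 (0.078) or pklpif4-labelled replicate 1 (0.0708). The difference between the pkl effects in the 2 backgrounds was 0.45 ± 0.35 (adjusted p = 0.37).

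**Figure D2:**
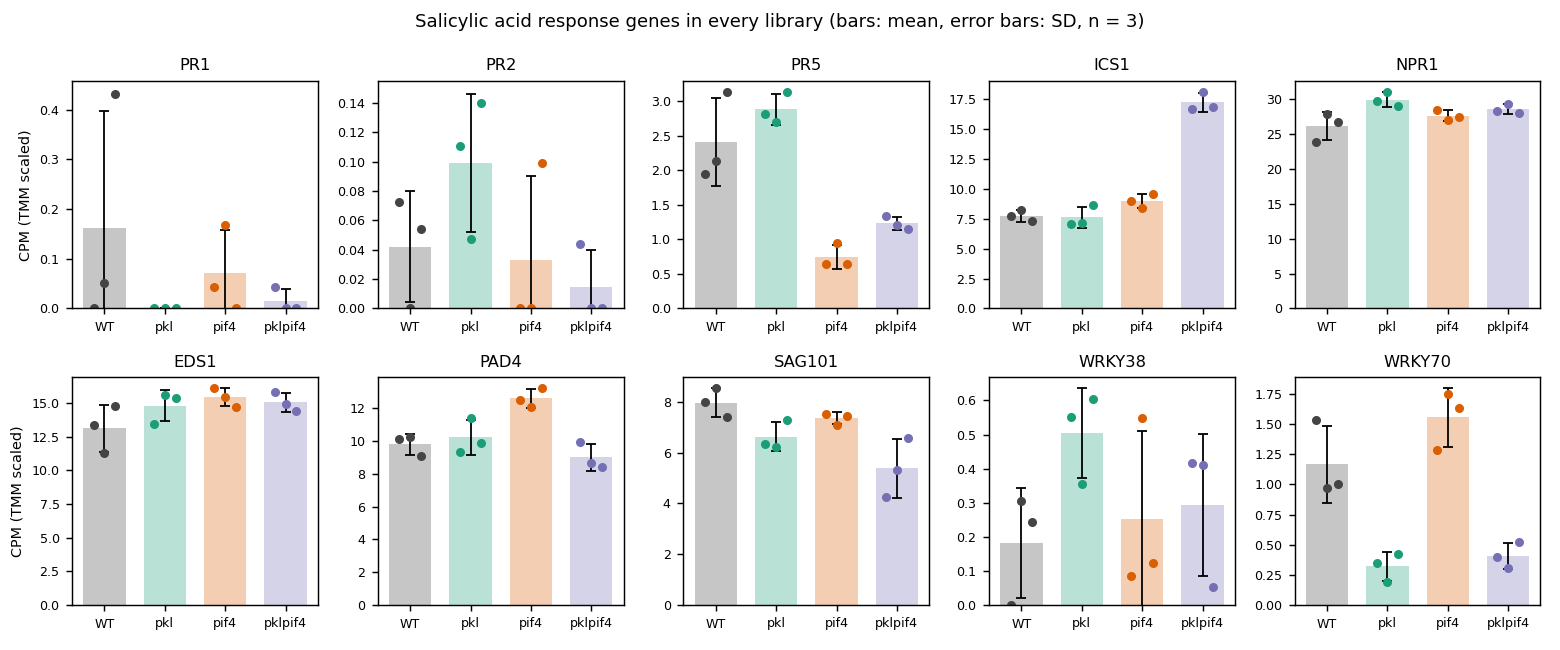
CPM with TMM factors (y axis, starting at 0, a scale for each gene) by genotype (x axis) for the 10 genes, with points for libraries, bars for means and error bars for the SD (n = 3), drawn down to 0 where they would pass below it. ICS1 stands at 17.2 CPM in the pklpif4-labelled group against 7.61 to 8.99 in the others, PR5 is low in both groups with a pif4 label, and WRKY70 is low in both groups with a pkl label.

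ICS1 (AT1G74710, chr1:28070295-28074148, plus strand), the isochorismate synthase that makes most of the salicylic acid formed in defence, differed from WT in the pklpif4-labelled group and not detectably in either single mutant group. Its levels were 7.72, 8.22 and 7.27 CPM in WT, 7.09, 7.10 and 8.63 in pkl, 9.01, 8.39 and 9.58 in the pif4-labelled libraries and 16.7, 18.1 and 16.9 in the pklpif4-labelled ones. The lowest pklpif4-labelled library was above the highest of the other 9. The rise against WT was 1.15 ± 0.10 on the log2 scale (adjusted p = 3.54e-19), against pkl 1.18 ± 0.10 (adjusted p = 9.97e-20) and against the pif4-labelled group 0.94 ± 0.10 (adjusted p = 7.24e-15). The difference from WT was -0.03 ± 0.10 in pkl (adjusted p = 0.842). It was 0.21 ± 0.10 in the pif4-labelled group (adjusted p = 0.106), where all 3 libraries were above those of WT. The pkl effect was larger in the pif4-labelled than in the WT background by 0.97 ± 0.14 (adjusted p = 1.22e-08). The seed marker sum was high in the same 3 libraries, at 3391 to 3427 CPM, and its part in this result was not tested. The related ICS2 shares 80.5% of 1646 aligned exon bases with ICS1, and the longest identical run is 23 bases.

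NPR1 (AT1G64280, chr1:23852748-23855566, minus strand), the salicylic acid receptor that coactivates defence genes, differed from WT by at most 0.20 on the log2 scale. It was at 23.9, 27.8 and 26.7 CPM in WT, 29.7, 31.0 and 28.9 in pkl, 28.4, 27.01 and 27.4 in the pif4-labelled libraries and 28.32, 29.3 and 28.0 in the pklpif4-labelled ones. All 3 pkl libraries were above WT, and the rise was 0.20 ± 0.06 on the log2 scale (adjusted p = 0.00397), which was lost without WT replicate 1 (0.13, adjusted p = 0.102). The pklpif4-labelled libraries were also all above WT, by 0.13 ± 0.06 (adjusted p = 0.058), and without WT replicate 2 that difference passed (0.18, adjusted p = 0.0212). The pif4-labelled libraries overlapped WT (0.09 ± 0.06, adjusted p = 0.313). Of the NPR1 exon bases 1.51%, or 38, overlap a gene on the opposite strand, AT1G64270.1, and no other member of the set overlaps an annotated gene.

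The 3 lipase-like regulators went different ways. EDS1 (AT3G48090, chr3:17755374-17757780, minus strand) pairs with either PAD4 or SAG101, and the pairs work with different helper immune receptors. EDS1 was at 13.3, 11.3 and 14.8 CPM in WT, 13.5, 15.6 and 15.3 in pkl, 16.1, 15.4 and 14.7 in the pif4-labelled libraries and 15.8, 14.9 and 14.4 in the pklpif4-labelled ones. WT replicate 2 was the lowest of the 12, and every group overlapped WT. EDS1 rose by 0.23 ± 0.09 in the pif4-labelled group (adjusted p = 0.027) and by 0.20 ± 0.09 in the pklpif4-labelled group (adjusted p = 0.0432), and the difference in pkl was 0.17 ± 0.09 (adjusted p = 0.0858). Without WT replicate 2 the 2 rises became 0.14 (adjusted p = 0.286) and 0.10 (adjusted p = 0.365). The first was also lost without pif4-labelled replicate 1 (0.113) or 2 (0.0653), and the second without WT replicate 1 (0.063) or pklpif4-labelled replicate 1 (0.159) or 2 (0.0683). Over all 23 alternatives the first call was kept in 20 and the second in 15. The second was also lost under some changes of method. In pkl the difference passed without WT replicate 3 (0.26, adjusted p = 0.0196) or without pkl replicate 1 (0.24, adjusted p = 0.0311). EDS1 has a close copy, AT3G48080, with 85.2% identity over 2069 aligned exon bases and an identical run of 64 bases, so some reads may be shared between them.

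PAD4 (AT3G52430, chr3:19431371-19434403, plus strand), which with EDS1 promotes salicylic acid accumulation, was at 10.1, 10.3 and 9.08 CPM in WT, 9.34, 11.4 and 9.91 in pkl, 12.5, 12.1 and 13.2 in the pif4-labelled libraries and 9.95, 8.63 and 8.45 in the pklpif4-labelled ones. The 3 pif4-labelled libraries were above all 9 others. PAD4 rose by 0.36 ± 0.10 in that group against WT (adjusted p = 0.00246). Its differences from WT were 0.05 ± 0.10 in pkl (adjusted p = 0.683) and -0.12 ± 0.10 in the pklpif4-labelled group (adjusted p = 0.309), where the libraries overlapped WT. The pklpif4-labelled group was lower than the pif4-labelled one by 0.48 ± 0.10 (adjusted p = 2.06e-05). The pkl effect was lower in the pif4-labelled than in the WT background by 0.53 ± 0.14 (adjusted p = 0.00145).

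SAG101 (AT5G14930, chr5:4828640-4830955, plus strand), first described as a leaf senescence gene and the other partner of EDS1, was at 7.98, 8.53 and 7.41 CPM in WT, 6.35, 6.23 and 7.28 in pkl, 7.53, 7.08 and 7.44 in the pif4-labelled libraries and 4.24, 5.33 and 6.57 in the pklpif4-labelled ones. The 3 pklpif4-labelled libraries were all below WT and spread more widely than those of any other group. SAG101 fell by 0.57 ± 0.13 on the log2 scale in the pklpif4-labelled group against WT (adjusted p = 5.06e-05). It was lower than in the pif4-labelled group by 0.46 ± 0.13 (adjusted p = 0.00142), which was lost without pklpif4-labelled replicate 1 (adjusted p = 0.0531). Against pkl the difference of -0.30 ± 0.13 (adjusted p = 0.0465) rested on the same library: without it the value was -0.16 (adjusted p = 0.40). That call was also lost without pkl replicate 1 (0.0557) or 3 (0.208), pif4-labelled replicate 3 (0.05) or pklpif4-labelled replicate 2 (0.097). In pkl the libraries were all below WT, with a difference of -0.27 ± 0.12 (adjusted p = 0.056) that passed without WT replicate 3 (-0.32, adjusted p = 0.0433), pkl replicate 3 (-0.34, adjusted p = 0.0327), or pklpif4-labelled replicate 1 (adjusted p = 0.0468) or 3 (adjusted p = 0.0489). The difference in the pif4-labelled group was -0.12 ± 0.12 (adjusted p = 0.51).

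The 2 WRKY genes were called in opposite directions in pkl, and the WRKY38 call was lost without some single libraries. WRKY70 (AT3G56400, chr3:20908928-20910481, minus strand), which activates salicylic acid targets and restrains jasmonate ones, was at 1.54, 0.968 and 1.00 CPM in WT, 0.350, 0.189 and 0.419 in pkl, 1.28, 1.75 and 1.64 in the pif4-labelled libraries and 0.395, 0.308 and 0.521 in the pklpif4-labelled ones. All 6 libraries with a pkl label were below all 6 without one. WRKY70 fell by 1.87 ± 0.39 on the log2 scale in pkl (adjusted p = 1.66e-05) and by 1.55 ± 0.38 in the pklpif4-labelled group (adjusted p = 0.000259). Against the pif4-labelled group the pklpif4-labelled one was lower by 1.94 ± 0.37 (adjusted p = 4.17e-06). The pif4-labelled group itself differed from WT by 0.40 ± 0.33 (adjusted p = 0.394). The pkl effects in the 2 backgrounds differed by -0.07 ± 0.56 (adjusted p = 0.949), an SE too wide to show that they were alike. In the windows searched, from 250 bases before to 50 after the RefSeq start, WRKY70 alone of the 10 genes held the TGACG letters. Bases further upstream were not searched.

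WRKY38 (AT5G22570, chr5:7495539-7496784, minus strand), a repressor of basal defence that acts with WRKY62, was close to the limit of the depth. It had 0, 12 and 9 counts in WT, 30, 15 and 26 in pkl, 4, 26 and 5 in the pif4-labelled libraries and 19, 20 and 2 in the pklpif4-labelled ones. The 3 pkl libraries were above the 3 WT ones, while the other groups overlapped both. The rise in pkl was 1.57 ± 0.65 on the log2 scale (adjusted p = 0.0358), and the ratio of summed counts was 3.19 with an exact 95% interval from 1.54 to 6.72. It was lost without WT replicate 1 (0.87, adjusted p = 0.273), pkl replicate 1 (adjusted p = 0.087) or pkl replicate 3 (adjusted p = 0.104), and DESeq2 gave an adjusted p of 0.12. The differences from WT were 0.60 ± 0.70 in the pif4-labelled group (adjusted p = 0.567) and 0.83 ± 0.69 in the pklpif4-labelled group (adjusted p = 0.319).

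Counted over the 8 tested genes, 2 rose and 1 fell in pkl against WT, where 53.6% of all 22130 tested genes were called (27.1% higher, 26.5% lower). In the pif4-labelled group 2 rose and 1 fell, where 32.5% of all tested genes were called (16.2% higher, 16.2% lower). In the pklpif4-labelled group 2 rose and 3 fell, where 54.8% were called (27.2% higher, 27.7% lower). Against pkl, the pklpif4-labelled group had 1 higher and 2 lower of the 8, with 39.9% of all genes called (19.5% and 20.5%). Against the pif4-labelled group it had 2 higher and 3 lower, with 50.2% called (25.5% and 24.7%). For the difference between the pkl effects in the 2 backgrounds, 1 was higher and 1 lower, with 31.9% called (15.3% and 16.5%). The counts of the 8 are to be read against these shares, and no test was made of the difference. The 8 genes had a median log2 change of 0.11 for pkl, 0.22 for the pif4-labelled and 0.00435 for the pklpif4-labelled group, against 0.000599, 0.000143 and -0.00185 over all tested genes. Since the 3 comparisons with WT share the WT libraries, as the others share theirs, their values are not independent of each other.

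**Figure D3:**
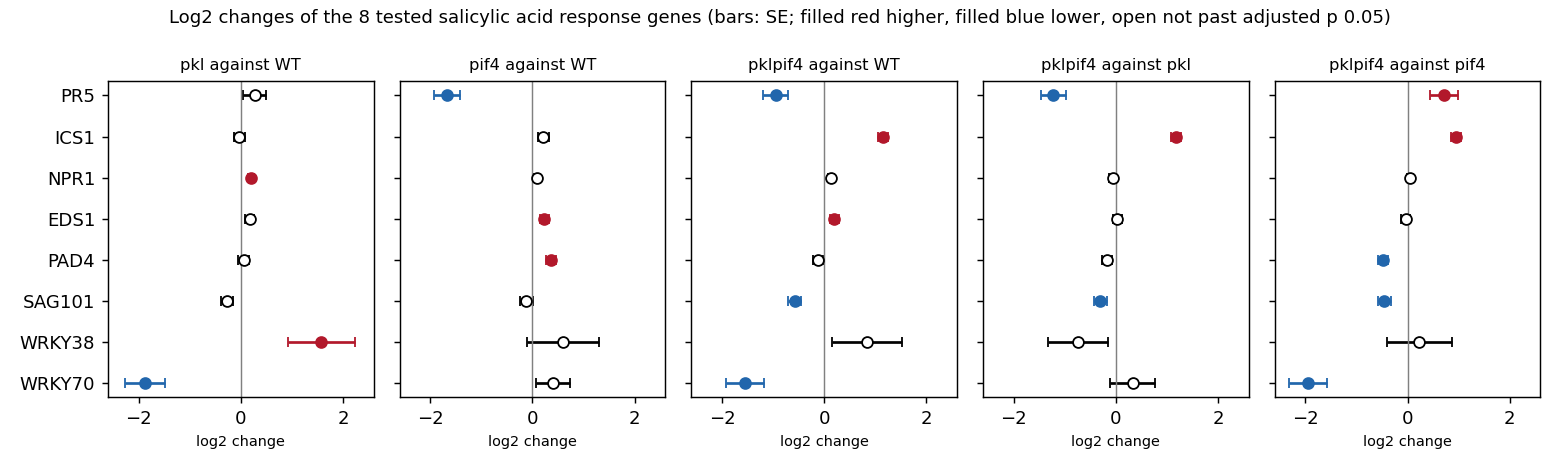
Log2 change (x axis) of each tested gene (y axis) in 5 comparisons, with bars for the SE, filled red points for genes that rose, filled blue for genes that fell and open points for those not past the adjusted p of 0.05. PR5 is blue at -1.67 in the pif4-labelled panel, ICS1 is red at 1.15 in the pklpif4-labelled panel, and WRKY70 is blue in every panel that sets a group with a pkl label against one without.

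When library totals replaced TMM factors, the share of higher genes among all called ones went from 50.5% to 62.0% in pkl, from 49.97% to 61.2% in the pif4-labelled group, from 48.8% to 37.4% for the pklpif4-labelled group against pkl and from 48.1% to 31.1% for the difference between pkl effects. For that difference the 8 genes then had 1 higher and 2 lower. No call of the 8 genes changed its sign.

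The other genes of the pathway were read from lists of 55 genes, 45 of them tested. In pkl 17 rose and 6 fell (median log2 change 0.19), where 27.1% of all tested genes rose and 26.5% fell. In the pif4-labelled group 13 rose and 10 fell (median 0.07), against 16.2% and 16.2% of all. In the pklpif4-labelled group 12 rose and 9 fell (median -0.01), against 27.2% and 27.7% of all. Compared with pkl, the pklpif4-labelled group had 5 higher and 17 lower (19.5% and 20.5% of all), and compared with the pif4-labelled group 14 higher and 12 lower (25.5% and 24.7% of all). The difference between the pkl effects was higher for 3 and lower for 12 (15.3% and 16.5% of all). Both directions were present in all 6 comparisons. The counts of the single lists below, each of a few genes, are to be read against the same shares, and no list was tested.

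Among 6 synthesis and transport genes, the plastid transporter EDS5 and PBS3, which joins isochorismate to glutamate on the way to salicylic acid, moved apart. EDS5 ranged from 3.62 to 4.40 CPM in WT, from 8.29 to 8.84 in pkl, from 5.52 to 6.17 in the pif4-labelled libraries and 6.54 to 7.85 in the pklpif4-labelled ones. It rose in all 3 mutant groups, by 1.12 ± 0.13, 0.55 ± 0.13 and 0.88 ± 0.13 on the log2 scale. PBS3 had 54, 36 and 34 counts in WT, 4, 10 and 2 in pkl, 23, 24 and 22 in the pif4-labelled libraries and 4, 4 and 4 in the pklpif4-labelled ones. It fell by 2.99 ± 0.55 in pkl and by 3.33 ± 0.58 in the pklpif4-labelled group, and was lowest in these groups. The pif4-labelled libraries, at 0.492 to 0.546 CPM, were also below those of WT, at 0.917 to 0.977, a difference that was not called. CBP60g, a transcription factor that promotes ICS1 expression, fell by 0.70 ± 0.21 in the pif4-labelled group, a call lost without WT replicate 2 (adjusted p = 0.117) or pif4-labelled replicate 1 (0.0819). ICS2 fell by 0.58 ± 0.23 in pkl, a call lost without WT replicate 2 (0.392), pkl replicate 1 (0.156) or pkl replicate 3 (0.107). Counts for the list were 1 higher and 2 lower in pkl, 1 and 1 in the pif4-labelled group, and 2 and 1 in the pklpif4-labelled group.

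Among 4 tested genes for turnover, UGT74F2, a glucosyltransferase that acts on salicylic acid, rose by 0.64 ± 0.03 in pkl and fell by 0.42 ± 0.03 in the pif4-labelled group. Its levels ran from 179 to 181 CPM in WT, from 278 to 285 in pkl, from 133 to 138 in the pif4-labelled libraries and 171 to 182 in the pklpif4-labelled ones. DMR6, a salicylic acid hydroxylase, was at 33.2 to 36.7 CPM in WT and 18.6 to 20.6 in the pif4-labelled libraries, and it fell by 0.85 ± 0.06. In pkl it was at 32.6 to 33.5 CPM and in the pklpif4-labelled libraries at 32.9 to 35.0, and the pif4-labelled group alone stood low. The related hydroxylase DLO1 fell by 1.42 ± 0.47 in the pklpif4-labelled group, a call lost without WT replicate 3 (adjusted p = 0.0726) or pklpif4-labelled replicate 1 (0.0814). UGT74F1, another glucosyltransferase, fell by 0.60 ± 0.24 in pkl, a call lost without WT replicate 2 (0.0997), WT replicate 3 (0.0928), pkl replicate 1 (0.166) or pkl replicate 2 (0.0572). The list had 1 higher and 1 lower in pkl, 0 and 2 in the pif4-labelled group and 0 and 1 in the pklpif4-labelled group.

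Among 11 tested genes for receptors and their partners, called changes were all below 1 on the log2 scale. NPR3 and NPR4 encode salicylic acid receptors that repress defence genes. NPR3 rose by 0.24 in pkl and fell by 0.32 in the pif4-labelled group, and NPR4 fell by 0.25 in pkl, a call lost without WT replicate 3 (adjusted p = 0.0505). TGA1, a bZIP factor that works with NPR1, ranged from 44.9 to 48.9 CPM in WT, from 67.9 to 69.9 in pkl, from 54.9 to 57.0 in the pif4-labelled libraries and 69.5 to 77.3 in the pklpif4-labelled ones, and it rose in all 3 by 0.58, 0.28 and 0.65. TGA4 rose by 0.44 in the pif4-labelled group. The gene AT4G26120, annotated as an ankyrin repeat and BTB/POZ protein, rose by 0.98 ± 0.28 in the pklpif4-labelled group. The list had 2 higher and 1 lower in pkl, 3 and 2 in the pif4-labelled group and 2 and 2 in the pklpif4-labelled group.

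Among 8 genes of EDS1 and immune receptor signalling, 5 rose and 1 fell in pkl, where 53.6% of all tested genes were called. In the pif4-labelled group 4 rose and 1 fell (32.5% of all called), and in the pklpif4-labelled group 2 rose and 1 fell (54.8% of all called). AT3G48080, the neighbouring copy of EDS1, ranged from 1.34 to 1.63 CPM in WT, from 2.46 to 2.91 in pkl, from 2.87 to 2.97 in the pif4-labelled libraries and 1.85 to 2.28 in the pklpif4-labelled ones. It rose by 0.84 ± 0.22 in pkl and by 0.93 ± 0.21 in the pif4-labelled group. NDR1, a membrane protein needed by a class of immune receptors, fell by 0.73 ± 0.23 in pkl. The helper receptor ADR1-L2 rose by 0.28 in pkl and by 0.15 in the pif4-labelled group. AT5G66910, annotated as a disease resistance protein, rose by 0.41 in pkl and by 0.59 in the pklpif4-labelled group. SNC1, an immune receptor, fell by 0.16 in the pklpif4-labelled group.

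The 4 genes of N-hydroxypipecolate, the mobile immune signal made alongside salicylic acid, had 3 higher and 0 lower in each mutant group, where 27.1%, 16.2% and 27.2% of all tested genes were higher in pkl and in the groups with the pif4 and both labels. FMO1, the enzyme that forms it, had 2, 4 and 8 counts in WT, 60, 32 and 33 in pkl, 60, 27 and 27 in the pif4-labelled libraries and 8, 26 and 2 in the pklpif4-labelled ones. It rose by 2.98 ± 0.57 in pkl and 2.92 ± 0.57 in the pif4-labelled group, and only the pklpif4-labelled libraries overlapped WT. UGT76B1, which glucosylates N-hydroxypipecolate and salicylic acid, ranged from 8.05 to 8.78 CPM in WT, from 34.9 to 36.5 in pkl, from 13.5 to 14.3 in the pif4-labelled libraries and 23.6 to 26.9 in the pklpif4-labelled ones. It rose in all 3, by 2.08 ± 0.07, 0.73 ± 0.08 and 1.58 ± 0.08. AT5G52810, annotated as a Rossmann-fold protein, rose by 1.24 ± 0.10 in pkl and 0.88 ± 0.11 in the pklpif4-labelled group. ALD1, the aminotransferase at the start of the pathway, had 6, 6 and 0 counts in WT, 18, 20 and 13 in the pif4-labelled libraries and 12, 14 and 12 in the pklpif4-labelled ones. It rose by 2.03 ± 0.70 in the pif4-labelled group, a call lost without WT replicate 3 (adjusted p = 0.122) or pif4-labelled replicate 2 (0.0606). Its rise of 1.64 ± 0.73 in the pklpif4-labelled group (adjusted p = 0.0485) was lost without any of 10 libraries, WT replicates 1 and 3, pkl replicates 2 and 3 and all 6 with a pif4 label, with adjusted p from 0.0535 to 0.218.

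**Figure D4:**
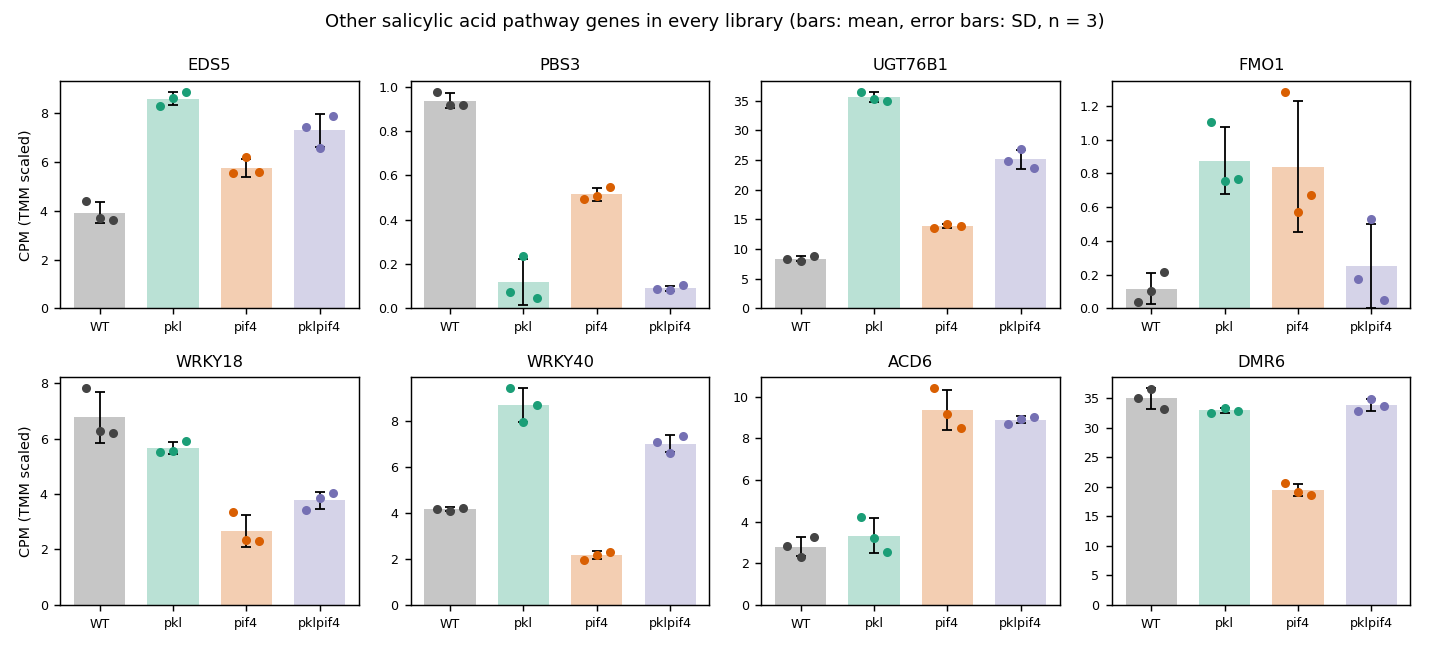
CPM with TMM factors (y axis, starting at 0, a scale for each gene) by genotype (x axis) for 8 other pathway genes, with points for libraries, bars for means and error bars for the SD (n = 3), drawn down to 0 where they would pass below it. UGT76B1 is highest in pkl at 35.6 CPM and lowest in WT at 8.40. PBS3 is lowest in the groups with a pkl label, and DMR6 is low in the pif4-labelled group.

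Among 6 tested WRKY genes outside the set, WRKY40, which acts with WRKY18 and WRKY60, ranged from 4.07 to 4.24 CPM in WT, from 7.98 to 9.45 in pkl, from 1.97 to 2.31 in the pif4-labelled libraries and 6.62 to 7.38 in the pklpif4-labelled ones. It rose by 1.06 in pkl, fell by 0.95 in the pif4-labelled group and rose by 0.75 in the pklpif4-labelled group. WRKY18 fell by 1.35 in the pif4-labelled and by 0.85 in the pklpif4-labelled group. WRKY46 fell by 1.86 in the pif4-labelled group and by 1.23 in the pklpif4-labelled one, where the call was lost without WT replicate 3 (adjusted p = 0.111) or pklpif4-labelled replicate 3 (0.069). WRKY60 rose by 0.79 in pkl. The list had 2 higher and 1 lower in pkl, 0 and 4 in the pif4-labelled group, and 1 and 3 in the pklpif4-labelled group. WRKY54, WRKY62 and WRKY51 did not have enough counts to be tested.

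Of 11 other salicylic acid induced genes 6 were tested, with 3 higher and 0 lower in pkl (53.6% of all tested genes called), 2 and 0 in the pif4-labelled group (32.5%) and 2 and 1 in the pklpif4-labelled group (54.8%). BG3, a glucanase gene of the PR2 family with 75.8% identity to PR2 over 1096 aligned bases, had 6, 4 and 2 counts in WT, 26, 35 and 36 in pkl, 8, 2 and 2 in the pif4-labelled libraries and 6, 12 and 14 in the pklpif4-labelled ones. It rose by 2.93 ± 0.62 in pkl. ACD6, an ankyrin membrane protein that raises salicylic acid signalling, ranged from 2.32 to 3.24 CPM in WT, from 2.53 to 4.22 in pkl, from 8.51 to 10.4 in the pif4-labelled libraries and 8.70 to 9.02 in the pklpif4-labelled ones. It rose by 1.74 ± 0.14 and 1.67 ± 0.14 in the groups with a pif4 label, which are those where PR5 was low. GRXS13, a glutaredoxin gene, rose by 0.49 ± 0.09 in the pklpif4-labelled group, where WAK1, a wall-associated kinase, fell by 1.39 ± 0.28. The glutaredoxin gene GRX480 rose by 1.42 ± 0.57 in pkl, a call lost without WT replicate 1 (adjusted p = 0.0899) or 2 (0.161), or without pkl replicate 1 (0.0677) or 3 (0.0886).

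**Figure D5:**
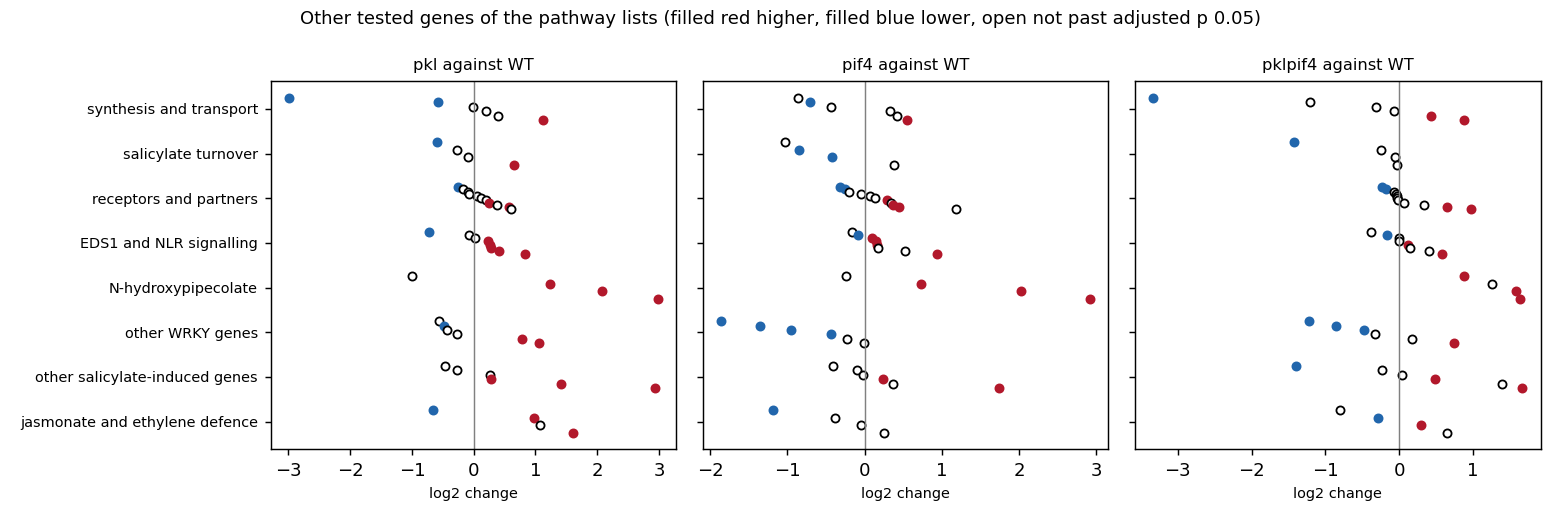
Log2 change (x axis, a range for each panel) of the tested genes of 8 pathway lists (y axis) in each mutant group against WT, with filled red points for genes that rose, filled blue for genes that fell and open points for the rest. Both colours appear in each panel, and the 4 N-hydroxypipecolate genes have 3 red points and 0 blue in each.

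In jasmonate and ethylene defence, the branch known to oppose salicylic acid, 4 of 6 genes were tested. PR4, a chitin-binding protein, ranged from 57.4 to 59.7 CPM in WT, from 112 to 120 in pkl, from 24.6 to 27.6 in the pif4-labelled libraries and 70.6 to 73.5 in the pklpif4-labelled ones. It rose by 0.97 ± 0.04 in pkl and by 0.29 ± 0.04 in the pklpif4-labelled group and fell by 1.18 ± 0.05 in the pif4-labelled group. PR3, a chitinase, fell by 0.65 in pkl. ORA59, an ethylene response factor, rose by 1.61 in pkl, a call lost without pkl replicate 3 (1.23, adjusted p = 0.096). Of the senescence genes, SAG13 was at 19.35 to 20.03 CPM in WT and at 0.0496 to 0.128 in the pif4-labelled libraries, and it fell by 7.73 ± 0.20 there. Those libraries held 12 SAG13 counts in all, close to the floor of 6 over a group. The size of that fall is therefore less certain than its SE states. SAG13 was at 0.945 to 1.30 CPM in the pklpif4-labelled group, where it fell by 4.15 ± 0.13, and SAG12, a late senescence marker, was not tested for lack of counts. ORE1, a NAC factor that promotes leaf senescence, rose by 0.43 in pkl and fell by 0.34 in the pif4-labelled group, where NYE1, which starts chlorophyll breakdown, fell by 0.34.

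The genes whose levels followed ICS1 most closely across the 12 libraries were NTL8, AT4G32460 and AT5G50170, with Pearson r of 0.986, 0.985 and 0.980 on log2(CPM + 1). For PR5 they were EXLA1, AT1G80130 and ABF4, with r of 0.975, 0.971 and 0.970. For WRKY38 they were AT3G29010, AT4G39235 and AT2G26630.1, with r of 0.865, 0.859 and 0.845. The libraries fall into 4 genotype groups, so the values for ICS1 and PR5 describe a shared pattern of group means and nothing more. WRKY38 ranged from 0.0856 to 0.548 CPM within the pif4-labelled group alone, while its group means ran from 0.183 to 0.504. Its values therefore cannot be read as a pattern of group means. All the genes named were picked as the highest among the 22130 tested genes, members aside, and no r was tested.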

How the data were processed

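Per the labels' protocols, poly(A) RNA went into TruSeq libraries read on a HiSeq Xten. The submitters' processing notes name fastp, HISAT2 2.1.0, SAMtools 1.6 and TAIR10. No source used here gives the counting program or its strand setting. Deposited were raw counts per gene and FPKM, which scale those counts by exon length and library total (recomputed to within 4.35e-07). The tables named for red light held the same 403344 counts and 403344 FPKM values, with 0 differing, and their 24 columns were not used. The 12 red-light samples were not analysed, and the growth condition rests on the column names.

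Counts of the 12 libraries entered 1 edgeR 4.0.16 model (R 4.3.3) of group means with TMM factors, filterByExpr (minimum count 10, minimum total 15), the robust two-sided quasi-likelihood test and Benjamini-Hochberg adjustment at 0.05. Of the 33612 genes, 26722 had at least 1 count and 22130 were tested. The SE is the log2 change divided by the square root of F and is not a value edgeR reports. Even numbers made up 70.9% to 74.3% of the counts from 1 to 8 in each library, so intervals and the floor of 3 fragments use halved counts and cover counting error only. Alternatives used limma 3.58.1, with pseudocounts of 1 and 0.1 on log2 FPKM, and DESeq2 1.42.0. Table positions are on TAIR10, and promoter sequences were read at RefSeq starts of TAIR10.1, in which 28932 of the table's identifiers were found. The labels call the replicates biological and do not say what was separate about them.

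The 10 genes, the lists and the rule for named genes were chosen with earlier results of these data known. The rule names all 10 genes, the labelled genes, near copies and overlapping genes, up to 4 called genes with the largest changes per list and mutant, and the 3 genes most like PR1, PR2, PR5, ICS1 and WRKY38 in pattern. PR1 and PR2 were not tested, so none is named for them. Called genes of the lists with a change under 0.5 on the log2 scale whose call was lost without 2 or more libraries stand in the counts alone, an exception made after their values were seen. Genes without a symbol in the reference are called by their identifier.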

Additional observations from a re-analysis of the deposited data

Results flagged for a closer look

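The pkl effect, as a log2 change, differed between the pif4-labelled and the WT background in 21 of the 60 tested genes of the salicylic acid, jasmonate and ethylene, and senescence lists, the 10 genes included (adjusted p under 0.05, edgeR's quasi-likelihood test of the difference itself over all 22130 genes, of which 31.9% were called). The 21 of 60 is to be read against that 31.9% and was not tested against it. Of the 22 root, green tissue and seed markers, 18 were called in the same test, 6 of each kind, and they are not listed below. Each value below is the pkl effect with the pif4 label minus the pkl effect in WT. Every one rests on the labels of libraries whose PIF4 transcript was above WT.

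Among the 10 genes, the difference was 0.97 for ICS1 and -0.53 for PAD4. ICS1 was high in the pklpif4-labelled group alone, and PAD4 was high in the pif4-labelled group alone. For genes of synthesis and turnover it was -0.79 for EDS5, 0.88 for DMR6 and -0.25 for UGT74F2. For NPR1 partners it was -0.21 for TGA1, -0.60 for TGA3 and -0.40 for TGA4. For EDS1 and immune receptor signalling it was -1.37 for AT3G48080, -0.25 for ADR1-L1 and -0.43 for ADR1-L2. For N-hydroxypipecolate genes it was -4.65 for FMO1 and -1.23 for UGT76B1. FMO1 was above WT in both single mutant groups, and the group with both labels had 8, 26 and 2 counts.

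Among WRKY genes the difference was 0.76 for WRKY18, 0.64 for WRKY40 and -1.03 for WRKY60. It was -1.03 for WAK1, a call lost without WT replicate 1 (adjusted p = 0.0679) or 3 (0.0702), pkl replicate 2 (0.171), pif4-labelled replicate 3 (0.0888), or pklpif4-labelled replicate 2 (0.078) or 3 (0.094). It was 0.50 for PR4. For senescence genes it was 3.83 for SAG13, 0.34 for NYE1 and -0.28 for ORE1, the last lost without 8 of the libraries, with adjusted p from 0.0554 to 0.112. Those 8 were WT replicates 1 and 2, pkl replicates 1 and 3, pif4-labelled replicates 2 and 3 and pklpif4-labelled replicates 2 and 3. The SAG13 value rests on only 12 counts over the pif4-labelled group, so its size is uncertain.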

How the results depend on the processing

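In the alternatives run, no call of the 8 tested genes reversed, and ICS1 and WRKY70 kept each of theirs wherever they were tested. The calls of PR5 in both groups with a pif4 label against WT, of PAD4, and of SAG101 in the pklpif4-labelled group against WT were also kept in each alternative that tested the gene. A filter at a mean of 5 CPM removed PR5, WRKY38 and WRKY70. With it the 8 genes had 0 lower in pkl (1 in the fit reported), 0 lower in the pif4-labelled group (1), 1 lower in the pklpif4-labelled group (3), 1 lower against pkl (2), and 3 called, 1 of them higher, against the pif4-labelled group (5 and 2). The other pathway genes then had 1 lower in pkl (6), 5 in the pif4-labelled group (10), 3 in the pklpif4-labelled group (9), 3 higher and 9 lower against pkl (5 and 17), and 5 lower against the pif4-labelled group (12). In pkl 2 of the genes read here were lower without a filter, PR1 being then included, with halved counts and with only the 2 groups compared. DESeq2 gave 1 higher in pkl, 1 higher in the pklpif4-labelled group and 1 lower against pkl. The limma fits of log2(FPKM + 1) and log2(FPKM + 0.1) each gave 1 higher in the pklpif4-labelled group, 1 lower against pkl, and 3 other pathway genes higher against pkl. The second gave 3 other pathway genes lower in pkl. With only the 2 groups compared, 1 was lower against pkl and 1 higher against the pif4-labelled group. Library totals gave 2 lower for the difference between pkl effects (1). The cause of these moves was not tested, apart from the genes a filter removes or adds. The share of all genes called in each of these settings is not given here. Whether the counts moved with the whole table is therefore not shown.

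Leaving out each library in turn gave 1 to 5 called in pkl (0 to 3 higher, 1 to 2 lower), with 3 to 6 other pathway genes lower. It gave 1 to 2 higher in the pif4-labelled group, 1 to 2 higher in the pklpif4-labelled group, and 1 to 2 lower against pkl with 3 to 5 other pathway genes higher. Against the pif4-labelled group it gave 3 to 5 called, 1 to 2 of them higher. Over all genes in the same fits, 10891 to 11927 were called in pkl and 6278 to 7213 in the pif4-labelled group. In the pklpif4-labelled group 11146 to 12198 were called, 7903 to 8927 against pkl and 10124 to 11190 against the pif4-labelled group. For the 8 genes the pkl count was lowest, at 1, without WT replicate 1 and highest, at 5, without WT replicate 3. A fit with the replicate number as a block called 3 of the 8 in pkl, 3 in the pif4-labelled group and 5 in the pklpif4-labelled group, as did the fit without it. No pairing of the libraries by number was found: of 18 same-number pairs 0 had a correlation of deviations over 0.1, and 3 of 12 libraries correlated best with their own number. Because the correlation runs over all tested genes, it could miss a pairing that touches few of them. Ratios of group means from deposited FPKM lay within the spread of those from CPM for the 8 genes. Depth limits PR1, PR2 and WRKY38.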
